A study of Mus musculus with 9 samples.

Results

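The data describe 60 genes that were highest in the LSKs of NHD13 mice alone, out of 24060 named genes in an RNA-seq count table of 9 libraries. A gene was taken when its lower CPM of the 2 NHD13 libraries (counts per column total, scaled to a common library size) was at least 2 times its highest CPM among the 7 other libraries and when it had at least 30 counts in both NHD13 libraries. Genes on chromosomes X and Y were left out, which leaves 22963 genes to choose from, and 10586 of them had the 30 counts. These values chose the genes, so the levels in NHD13 and the distance to the other groups are given as a description with no test. The choice bounded control and NHD13/MSI2 from above but did not use the contrast between them, and this contrast was tested.

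LSKs (lineage-low, Sca1+, Kit+ cells) are the fraction of mouse bone marrow in which blood stem cells and multipotent progenitors are found. NUP98-HOXD13 joins part of a nuclear pore protein to the DNA-binding homeodomain of a HOX protein, and the fusion is known for raising HOX gene expression and for causing a myelodysplastic syndrome in mice. MSI2 is an RNA-binding protein that acts on the translation and stability of its target mRNAs in blood stem cells.

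The libraries came from C57BL/6 marrow transplanted with wild-type helper cells into lethally irradiated congenic recipients, with an age of 4 months in the labels. The 3 control libraries carried neither transgene, the 2 NHD13 libraries carried NUP98-HOXD13 driven by the blood-specific Vav promoter, and the 4 NHD13/MSI2 libraries carried the same transgene together with a doxycycline-inducible MSI2 (KH2-Col1A1-tet-on-MSI2/ROSA26-rTTA). After engraftment the mice were fed doxycycline for 3 months, which the series' design gives for all 3 groups. The library name of control replicate 1 carries the word Bulk, and those of control replicates 2 and 3 carry MPP_HSC. Nothing in the labels says whether the libraries of a group came from separate mice, so the p-values below measure the spread between libraries, which may be partly technical. In bulk RNA, fewer cells of a type and less RNA per cell cannot be told apart.

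Column totals ranged from 19247514 to 23020739 counts. Each library had the stem and progenitor markers Kit (884 to 2409 CPM), Ly6a (50.8 to 363 CPM) and Cd34 (389 to 1751 CPM). Hoxd13 was at 0 in each control library and between 0.631 and 1.10 CPM in the 6 others. Msi2 was at 239 to 335 CPM in control, at 148 and 116 CPM in NHD13 and at 75.0 to 190 CPM in the libraries labelled NHD13/MSI2, so these counts do not show the added MSI2. Whether transcripts of the transgene would be counted on the mouse Msi2 row is not given in the sources used here, and directions for the last group rest on its label. NHD13/MSI2 replicate 4 stood apart with a TMM scaling factor (edgeR's correction of the library size) of 0.785, against 0.969 to 1.09 in the others. Xist, the RNA of the inactive X chromosome, was read at 949 and 941 CPM in control replicates 1 and 3, with 2.47 CPM or less in the rest, so female and male cells are not balanced between the groups.

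The lower NHD13 level of the 60 genes had a median of 7.17 CPM, and it was under 10 CPM in 38 of them. The lower NHD13 level was a median of 3.74 times the highest other library, with 24 genes under 3 times and 12 at 10 times or more (a highest other count under 3 was taken as 3 counts). In 30 genes the highest of the 7 other libraries was a control, most often control replicate 1 (20 genes), and in 30 it was a library labelled NHD13/MSI2, most often replicate 3 (13 genes). All 60 were protein-coding genes. Their exons summed to a median of 5153 bases, against 4369 bases over the genes tested.

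**Figure D1:**
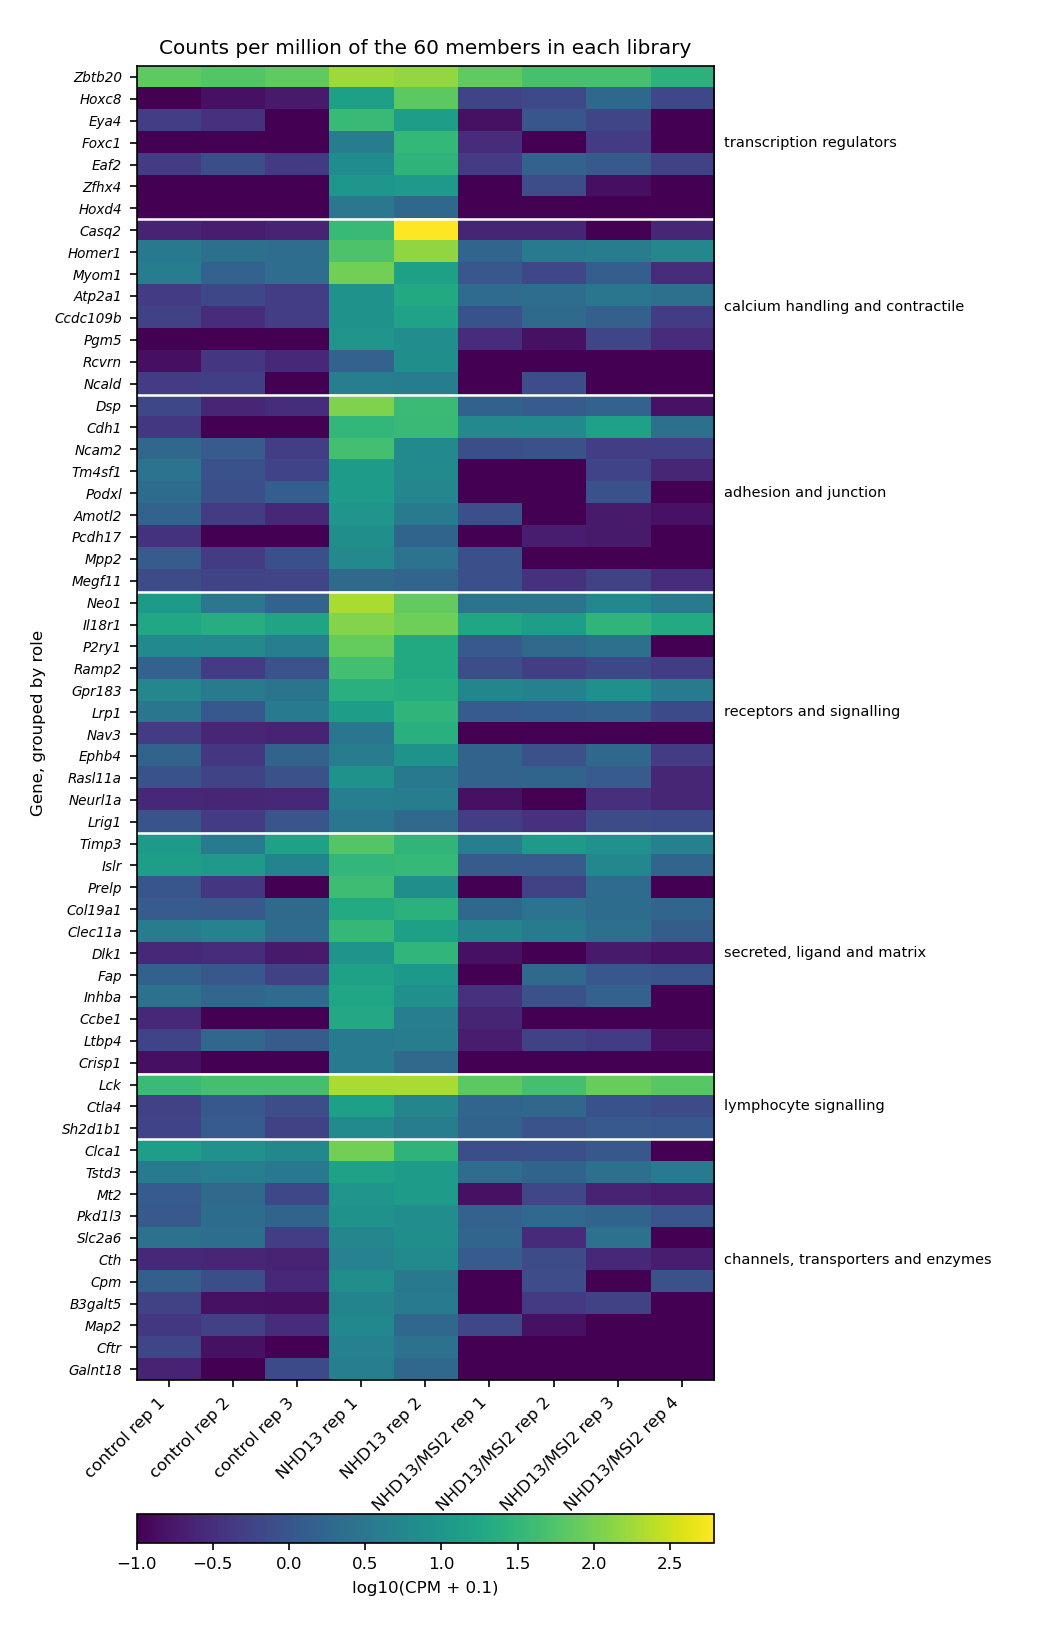
CPM of the 60 genes (rows, grouped by role and sorted by the NHD13 mean) in the 9 libraries (columns), drawn as log10(CPM + 0.1). The 2 NHD13 columns are the brightest in every row, and within them Casq2 in replicate 2 has the highest value, 615 CPM.

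At the 2-fold limit, the nearest genes inside were Timp3, an inhibitor of metalloproteinases (2.01 times), Zbtb20, a zinc finger repressor (2.02 times), and Ltbp4, which binds latent TGF-beta (2.13 times). The nearest outside were Cpt1c (2.00 times, 6.03 against 3.02 CPM), BC094916 (2.00 times, 3.59 against 1.80 CPM) and Rasgrf2 (1.96 times, 12.1 against 6.16 CPM). At the limit on counts, Rcvrn and Pcdh17 had 30 counts and Megf11 31 counts in their lower NHD13 library, whereas Limch1, Spats2 and 2200002D01Rik met the 2-fold limit with 29, 26 and 23 counts. With TMM-scaled library sizes 56 genes met the rule, 55 of them shared, and Zbtb20, Ephb4, Megf11, Rasl11a and Slc2a6 did not.

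The 2 NHD13 libraries were unequal in these genes. Of the 60 genes, 40 were higher in replicate 1 and 20 in replicate 2. The median fold between the 2 libraries was 2.17, with 21 genes within 1.5-fold and 11 genes over 4-fold. Casq2 (36.5 and 615 CPM in replicates 1 and 2), Foxc1 (3.99 and 33.1 CPM) and Nav3 (2.95 and 25.04 CPM) were furthest apart towards replicate 2. Ncam2 (45.4 and 6.44 CPM), Myom1 (94.6 and 14.1 CPM) and Prelp (41.0 and 7.53 CPM) were furthest apart towards replicate 1. Nav3, Ncam2, Myom1 and Prelp were named after their values were seen. Lck (206 and 202 CPM), Cdh1 (32.6 and 35.1 CPM) and Islr (32.5 and 34.3 CPM) were nearly equal.

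**Figure D2:**
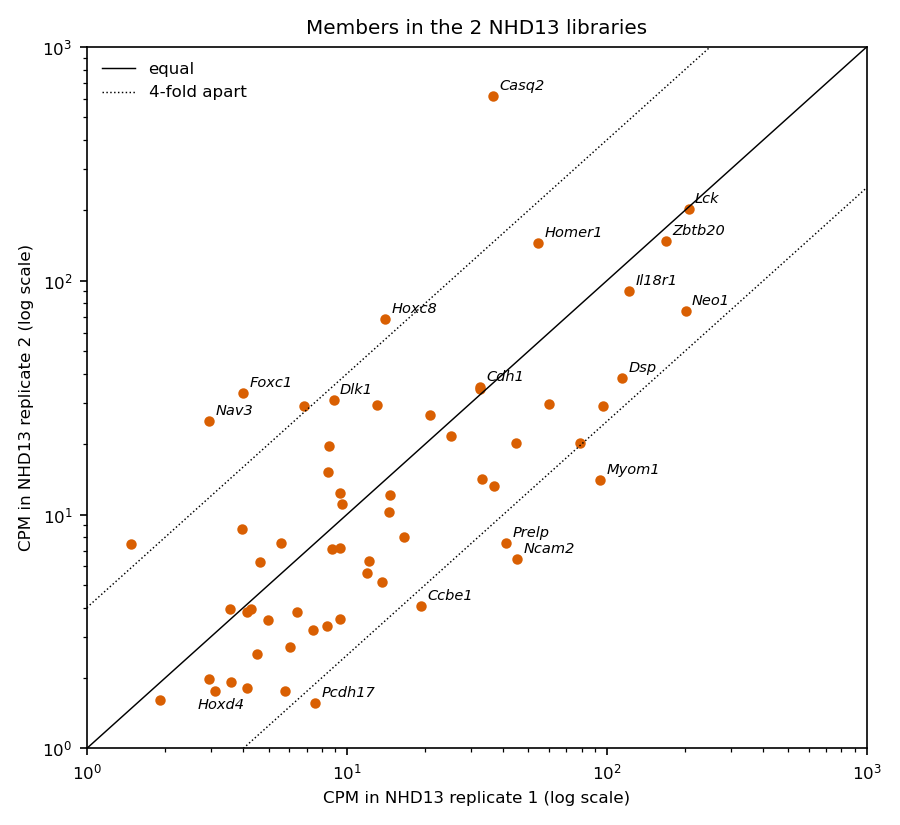
CPM of the 60 genes in NHD13 replicate 1 (x axis, log scale) and replicate 2 (y axis, log scale), with 1 point per gene, a solid line at equality and dotted lines at 4-fold. More points lie below the line (40) than above it (20), and 11 lie outside the dotted lines.

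Since each gene had to be high in both NHD13 libraries, the same rule was also applied to a single NHD13 library and the other one was read afterwards. With replicate 1, 457 genes were at least 2 times above the 7 other libraries, and the unused replicate 2 was above all 7 in 166 of them (36.3%). These genes were picked as low in the same 7 libraries, and the median log2 ratio of replicate 2 to the highest of the 7 was −0.34 over the 457 genes, close to the −0.36 over all genes with 30 counts in replicate 1. Over all 11338 such genes, replicate 2 was above all 7 in 17.1%. Replicate 2 was at 0 counts in 66 of the 457 genes. With replicate 2, 146 genes were picked, and the unused replicate 1 was above all 7 in 103 of them (70.5%), against 17.1% of all 10761 genes with 30 counts in replicate 2, and the median log2 ratio was 0.78 over the 146 genes and −0.31 over all. Replicate 1 was at 0 in 3 of these 146 genes. Genes picked on replicate 2 were thus found high in replicate 1 more often than the other way round, as a description of these libraries.

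The transcription regulators among the 60 genes were Hoxc8, Hoxd4, Foxc1, Eya4, Zfhx4, Zbtb20 and Eaf2. HOX genes encode homeodomain factors that set position along the body axis and are active in blood stem cells, where they are shut off as cells mature. Hoxc8 (chromosome 15, 102990607 to 102994111, plus strand, GRCm38) was at 14.1 and 68.5 CPM in NHD13 replicates 1 and 2. It was at 0, 0.0504 and 0.0869 CPM in the controls and at 0.501, 0.582, 1.80 and 0.560 CPM in the libraries labelled NHD13/MSI2. The 3 groups did not overlap, with NHD13 highest and control lowest.

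The nearest genes of the Hoxc cluster are given beside it. Hoxc6, 4146 bases away, was at 13.8 and 33.3 CPM in NHD13, at 12.6, 11.5, 7.94 and 5.30 CPM in the libraries labelled NHD13/MSI2 and at 0 in the controls. Hoxc5 was at 30.3 and 57.2 CPM in NHD13 and between 13.6 and 29.6 CPM in NHD13/MSI2, with at most 0.262 CPM in control. Hoxc4 was at 26.0 and 38.9 CPM in NHD13 and between 11.1 and 27.4 CPM in NHD13/MSI2, with at most 0.504 CPM in control. Hoxc4, Hoxc5 and Hoxc6 were past the threshold in NHD13/MSI2 over control (adjusted p = 0.000132, 2.63e-05 and 0.000243, edgeR's quasi-likelihood test) and remained so under each of 18 alternatives. Hoxc8 in the same comparison was at 4.27 on the log2 scale, with a standard error of 1.01 (adjusted p = 0.0155 by edgeR), which missed the threshold of 0.01. The call of Hoxc8 depended on the setting, and it passed with DESeq2 (adjusted p = 0.000294), with a replicate block (adjusted p = 0.00537 by edgeR) and without NHD13 replicate 1 or 2 (adjusted p = 0.00627 and 0.00973), whereas without control replicate 1 its adjusted p was 0.0608 by edgeR. Hoxc9, 5508 bases on the other side, was at 0.738 and 0.416 CPM in NHD13 and at most at 0.0509 CPM elsewhere.

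Hoxd4 (chromosome 2, 74711929 to 74729160, plus strand) was at 3.10 and 1.77 CPM in NHD13, from 63 and 34 counts, and had 0 counts in all 7 other libraries. It was the only one of the 60 genes with 0 counts in all of them, and its lower NHD13 level was at least 11.6-fold higher than the other libraries, taking 3 counts per library as the limit that 0 allows. Of the other Hoxd genes, Hoxd8 was at 1.08 and 0.468 CPM in NHD13 and at 0 elsewhere, whereas Hoxd3 had at most 0.0492 CPM in a library. The promoter of Hoxd4 (RefSeq, GRCm38.p6, chr2:74721728-74722027, plus strand) is shown because the gene was read in NHD13 alone, and the capitals mark the letters TTTATA, which read as a TATA box on the minus strand, and CAATAAA on the plus strand.
Hoxd4: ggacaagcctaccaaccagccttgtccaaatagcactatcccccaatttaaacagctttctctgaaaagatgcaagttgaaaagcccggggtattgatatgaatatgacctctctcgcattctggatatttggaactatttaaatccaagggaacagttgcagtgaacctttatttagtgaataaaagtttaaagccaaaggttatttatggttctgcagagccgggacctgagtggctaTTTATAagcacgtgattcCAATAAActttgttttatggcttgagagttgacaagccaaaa
The letters TATAAA were searched as those of a TATA box, and the letters CAATAAA as those that posterior HOX proteins bind in vitro. On either strand, the first stood in the promoters of 5 of the 46 genes with a RefSeq promoter (10.9%), of 15.7% of all genes and of 9.06% of the genes tested. The other stood in 3 of the 46 (6.52%), in 5.33% of all genes and in 3.17% of the genes tested.

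**Figure D3:**
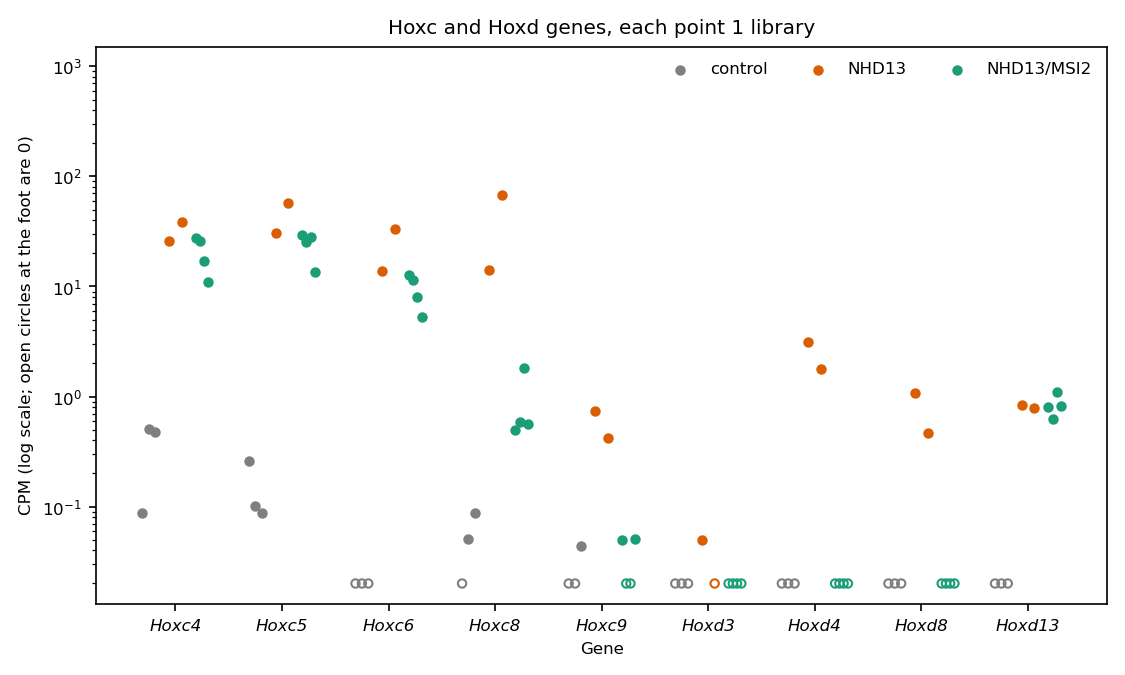
CPM (y axis, log scale) of Hoxc and Hoxd genes (x axis) with 1 point per library, by group, and with open circles at the foot for values of 0. Hoxc4, Hoxc5 and Hoxc6 are high in both NHD13 and NHD13/MSI2, whereas Hoxc8 falls from 14.1 and 68.5 CPM to 1.80 CPM or less and Hoxd4 is seen in NHD13 only.

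Over the list of 43 Hox genes, 14 had both NHD13 libraries above the 7 others, 12 of these among the 25 that were tested. Hoxc8 and Hoxd4 are among the 14 and meet this order by the rule that chose them, so the share is a description with no test. Over all 13355 genes tested, 6.18% were ordered in this way (4.44% with TMM-scaled CPM, by which the Hox list was not counted). In NHD13/MSI2 over control, 11 of the 25 were higher and 4 were lower at an adjusted p under 0.01 by edgeR, beside 4.49% and 6.55% of all genes tested.

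Foxc1, a forkhead factor of mesoderm, was at 3.99 and 33.1 CPM in NHD13, at 0 in the controls and at 0.200, 0, 0.351 and 0 CPM in the libraries labelled NHD13/MSI2. Zfhx4, a large zinc finger homeodomain protein, was at 9.59 and 11.1 CPM in NHD13, at 0 in the controls and at 0, 0.679, 0.0439 and 0 CPM in NHD13/MSI2. Eya4, a co-activator with phosphatase activity, was at 36.8 and 13.2 CPM in NHD13 and at most at 0.393 CPM in control and 0.922 CPM in NHD13/MSI2. Thus 3 genes of low or no count in the controls were read at 3.99 CPM or more in both NHD13 libraries. Zbtb20 was of another kind, with 169 and 148 CPM in NHD13, 71.3, 58.9 and 72.4 CPM in the controls and 73.4, 48.5, 48.9 and 27.5 CPM in NHD13/MSI2. Eaf2, an elongation factor partner, was at 6.84 and 29.0 CPM in NHD13 and at most at 1.46 CPM elsewhere.

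The genes of calcium handling and of contractile structures were Casq2, Atp2a1, Homer1, Ccdc109b, Myom1, Pgm5, Rcvrn and Ncald. Calsequestrin (Casq2) stores calcium in the sarcoplasmic reticulum of heart muscle, and Atp2a1 is the calcium pump of the same compartment in fast skeletal muscle. Casq2 (chromosome 3, 102086415 to 102146514, plus strand) had 742 and 11836 counts in NHD13, which are 36.5 and 615 CPM. In each of the 7 other libraries it had 0 to 3 counts. The lower NHD13 level was 239 times the highest other library, with a 95% exact interval of 81.4 to 1161 from counting error only, the largest of the 60 ratios. Per kilobase of exon, Casq2 also had the highest NHD13 level (119 CPM per kb), ahead of Lck (69.7 CPM per kb) and Il18r1 (22.0 CPM per kb). The promoter of Casq2 (RefSeq, GRCm38.p6, chr3:102086165-102086464, plus strand) is shown for this reason, with each CG in capitals, of which it has 6.
Casq2: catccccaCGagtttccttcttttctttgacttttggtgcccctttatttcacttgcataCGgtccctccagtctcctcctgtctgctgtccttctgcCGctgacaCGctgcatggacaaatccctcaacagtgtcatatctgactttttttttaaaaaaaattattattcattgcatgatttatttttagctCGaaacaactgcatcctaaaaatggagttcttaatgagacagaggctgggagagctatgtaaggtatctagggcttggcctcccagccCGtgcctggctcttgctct
The promoter of Neo1 had 54 CG pairs, the most of the 46 genes with a promoter, and is shown for this reason (RefSeq, GRCm38.p6, chr9:59036392-59036691, minus strand).
Neo1: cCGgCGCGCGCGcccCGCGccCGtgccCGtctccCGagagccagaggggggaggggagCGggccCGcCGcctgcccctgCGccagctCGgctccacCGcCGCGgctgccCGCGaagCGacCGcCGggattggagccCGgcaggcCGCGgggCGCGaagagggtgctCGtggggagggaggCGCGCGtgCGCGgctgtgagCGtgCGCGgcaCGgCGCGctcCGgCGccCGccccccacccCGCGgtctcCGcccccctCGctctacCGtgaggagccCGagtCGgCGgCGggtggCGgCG
Over the 46 matched genes the median was 17.5 CG pairs per 300-base promoter, against 8 over all genes and 21 over the genes tested. At least 15 pairs were found in 25 of the 46 genes (54.3%), in 37.1% of all genes and in 71.3% of the genes tested. How the number of pairs goes with the level in the 9 libraries was not tested, and single genes went both ways. Lck (7 and 5 pairs) and Zbtb20 (3 pairs) were well read in all 9. Foxc1 (32 pairs) and Eya4 (36 and 28 pairs) were at most at 0.393 CPM in control. In contrast, Neo1 (54 pairs) was at 1.52 CPM or more in all 9, and Casq2 (6 pairs) had at most 3 counts outside NHD13.

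Muscle markers were examined beside Casq2. Of the 12 listed genes, Myh1 and Tnnt2 were at 0 in all 9 libraries, Des, Actc1, Casq1 and Myh4 were at most at 0.132 CPM, and Acta1 and Tnnt3 were at most at 0.968 CPM. Mylpf was at 3.35 and 1.66 CPM in NHD13 and at 1.65 to 3.22 CPM in control, and Ryr1 was at 2.46 and 5.20 CPM in NHD13, 0.957 to 1.74 CPM in control and 5.49 to 8.91 CPM in NHD13/MSI2. The creatine kinase Ckm was at 8.17 and 19.8 CPM in NHD13 but also at 9.88 to 25.1 CPM in NHD13/MSI2, with at most 0.481 CPM in control. Casq2 is itself on the list, and the summed level of the other 11 genes was 4.60 to 4.99 CPM in control, 14.4 and 27.1 CPM in NHD13 and 23.5 to 35.4 CPM in NHD13/MSI2. The part of muscle cells in the level of Casq2 was not tested.

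Atp2a1 (chromosome 7, 126445858 to 126463108, minus strand) was at 8.56 and 19.6 CPM in NHD13. It was at 0.350, 0.554 and 0.391 CPM in the controls and at 2.00, 2.18, 2.94 and 2.39 CPM in the libraries labelled NHD13/MSI2, so that the groups did not overlap. Homer1, a scaffold that binds ryanodine and glutamate receptors, was at 54.5 and 145 CPM in NHD13 and between 1.60 and 5.55 CPM in the 7 others. Ccdc109b (now Mcub), a subunit of the mitochondrial calcium uniporter, was at 8.46 and 15.2 CPM in NHD13 and at most at 1.94 CPM elsewhere. Pgm5, a phosphoglucomutase relative of adherens junctions, was at 9.40 and 7.22 CPM in NHD13, at 0 in the controls and at 0.0485 to 0.527 CPM in NHD13/MSI2. Over the list of 22 calcium handling genes, 15 were tested. In NHD13/MSI2 over control 3 were higher and 3 lower, beside 4.49% and 6.55% of all genes tested. The related calcium pumps Atp2a2 (51.1 and 52.1 CPM in NHD13, 57.1 to 60.8 CPM in control) and Atp2a3 (291 and 196 CPM in NHD13, 188 to 308 CPM in control) did not show the order of Atp2a1.

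The adhesion and junction genes were Cdh1, Dsp, Pcdh17, Ncam2, Podxl, Amotl2, Megf11, Tm4sf1 and Mpp2. Cdh1 encodes E-cadherin, the calcium-dependent adhesion molecule of epithelia, which is also found on early erythroid cells, and Dsp encodes desmoplakin, which links desmosomes to intermediate filaments. Dsp (chromosome 13, 38151294 to 38198577, plus strand) was at 114 and 38.4 CPM in NHD13, at 0.568, 0.151 and 0.217 CPM in the controls and at 1.40, 1.16, 1.45 and 0.0509 CPM in NHD13/MSI2. Its lower NHD13 level was 26.5 times the highest other library. Cdh1 (chromosome 8, 106603351 to 106670246, plus strand) was at 32.6 and 35.1 CPM in NHD13, at 0.306, 0 and 0 CPM in the controls and at 5.96, 6.11, 14.5 and 2.39 CPM in the libraries labelled NHD13/MSI2. The 3 groups did not overlap in Cdh1. Pcdh17, a protocadherin, was at 7.58 and 1.56 CPM in NHD13 and at most at 0.262 CPM elsewhere. Over the list of 27 cadherins and protocadherins, 17 were tested. In NHD13/MSI2 over control 1 was higher and 1 lower, beside 4.49% and 6.55% of all genes tested. The desmosomal cadherins Dsg2 and Dsc2 were at 3.94 and 0.984 CPM in NHD13 replicate 1 and at 0.520 and 0 CPM in replicate 2, with up to 4.00 CPM in control. The other 6 genes of this group lay between 1.61 and 45.4 CPM in NHD13 and at most at 2.67 CPM elsewhere.

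Among receptors and signalling genes, Neo1 and Il18r1 had the highest NHD13 levels. Neogenin (Neo1) is a receptor for netrins and repulsive guidance molecules, and Il18r1 is the ligand-binding chain of the interleukin-18 receptor. Neo1 (chromosome 9, 58874687 to 59036441, minus strand) was at 202 and 74.3 CPM in NHD13, at 11.6, 3.12 and 1.52 CPM in the controls and at 2.81, 2.77, 5.75 and 3.62 CPM in NHD13/MSI2. Il18r1 was at 122 and 90.1 CPM in NHD13, at 18.8, 23.1 and 16.2 CPM in the controls and at 16.9, 12.8, 30.4 and 20.4 CPM in NHD13/MSI2. In both, control and NHD13/MSI2 overlapped. Ephb4, a receptor for ephrin B2, was at 3.94 and 8.68 CPM in NHD13 and at most at 1.80 CPM elsewhere. Over the 46 semaphorin, ephrin, slit and netrin genes, 33 were tested. In NHD13/MSI2 over control 2 were higher and 3 lower, beside 4.49% and 6.55% of all genes tested. The netrin Ntn1 was at 0.246 and 0 CPM in NHD13, and the netrin receptor Dcc was at 0 in both.

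Ramp2, which pairs with the calcitonin receptor-like receptor to bind adrenomedullin, was at 44.9 and 20.2 CPM in NHD13, at 1.44, 0.353 and 0.825 CPM in the controls and at 0.701, 0.388, 0.571 and 0.357 CPM in NHD13/MSI2. It is also on the list of 12 endothelial genes. The summed level of the other 11 was 489 to 705 CPM in control, 698 and 546 CPM in NHD13 and 608 to 794 CPM in NHD13/MSI2. Among them Cdh5 was at 0 in both NHD13 libraries, whereas Plvap (1.72 and 4.88 CPM) was above the other 7 libraries in both. Pecam1 was at 321 and 358 CPM in NHD13, above control (159 to 185 CPM) and below NHD13/MSI2 (392 to 542 CPM). Tie1 (79.95 and 22.6 CPM), Tek (57.9 and 22.9 CPM) and Esam (83.1 and 27.6 CPM) were lower in NHD13 than in the highest control (125, 76.0 and 110 CPM). Robo4 (16.2 and 6.96 CPM) and Egfl7 (49.2 and 68.1 CPM) were below the other 7 libraries in both. Kdr, Emcn and Eng were not set apart in both NHD13 libraries. The part of endothelial cells in the level of Ramp2 was not tested. Neurl1a, a ubiquitin ligase of Notch ligands, was at 4.28 and 3.95 CPM in NHD13 and at most at 0.219 CPM elsewhere. P2ry1, an ADP receptor of platelets, was named after its values were seen. It was at 78.8 and 20.2 CPM in NHD13, at 6.34, 5.94 and 4.08 CPM in the controls and at 1.05, 1.94, 2.41 and 0 CPM in NHD13/MSI2, which lay below all controls. The list of 12 megakaryocyte markers summed to 2217 and 418 CPM in NHD13 replicates 1 and 2. It summed to 1162 to 1577 CPM in control and 140 to 237 CPM in NHD13/MSI2. The part of megakaryocytes in the level of P2ry1 was not tested.

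The genes for secreted proteins, ligands and matrix were Dlk1, Inhba, Clec11a, Ccbe1, Col19a1, Prelp, Islr, Fap, Timp3, Ltbp4 and Crisp1. Dlk1, an imprinted Notch-like surface protein of fetal progenitors (chromosome 12, 109452823 to 109463336, plus strand), was at 8.91 and 30.8 CPM in NHD13, at 0.175, 0.201 and 0.0869 CPM in the controls and at 0.0501, 0, 0.0878 and 0.0509 CPM in NHD13/MSI2. Its lower NHD13 level was 44.2 times the highest other library. Meg3, the RNA expressed from the other parental copy of the same region, was at 0 and 0.0520 CPM in NHD13. Inhba, which encodes the subunit of activin A, was at 16.6 and 8.001 CPM in NHD13, at 2.53, 1.66 and 2.00 CPM in the controls and at 0.250, 0.776, 1.45 and 0 CPM in NHD13/MSI2. Over the 28 TGF-beta and BMP genes, 18 were tested, and 2 were lower in NHD13/MSI2 over control, beside 6.55% of all genes tested.

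Ccbe1, which acts in lymph vessel growth, was at 19.4 and 4.05 CPM in NHD13 and at most at 0.175 CPM elsewhere. Crisp1, a secreted protein known from the epididymis, had 73 and 37 counts in NHD13 (3.59 and 1.92 CPM), 1 count in control replicate 1 and 0 in the 6 others. Its lower NHD13 level was 44.0 times that of control replicate 1, with a 95% exact interval of 7.42 to 1784 from counting error only. Islr, an immunoglobulin-domain protein of mesenchymal cells, was at 32.5 and 34.3 CPM in NHD13, at 12.7, 11.2 and 5.04 CPM in the controls and at 1.15, 1.12, 5.71 and 1.63 CPM in NHD13/MSI2.

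Stromal markers were examined beside these matrix genes. Of the 12 listed genes, Dcn, Lum and Bglap were at most at 0.364 CPM in any library, and Col3a1 was at 0 in both NHD13 libraries. The summed level of the list was 61.8 to 105 CPM in control, 50.2 and 71.6 CPM in NHD13 and 1.27 to 36.0 CPM in NHD13/MSI2. In control and NHD13 most of it was from Pdgfrb (32.9 and 63.7 CPM in NHD13), and in NHD13/MSI2 replicate 3, the highest of its group, most was from Cxcl12 (22.5 CPM).

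The lymphocyte signalling genes were Lck, Ctla4 and Sh2d1b1. Lck, the kinase that starts T cell receptor signalling (chromosome 4, 129548344 to 129573641, minus strand), was at 206 and 202 CPM in NHD13, at 38.5, 46.8 and 47.5 CPM in the controls and at 68.8, 47.1, 81.2 and 63.6 CPM in the libraries labelled NHD13/MSI2. It had the highest lower NHD13 level of the 60 genes. Ctla4, an inhibitory T cell receptor named after its values were seen, was at 13.6 and 5.14 CPM in NHD13 and between 0.437 and 1.70 CPM elsewhere.

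T cell markers were examined beside Lck. Of 12 listed genes 11 were in the table, and the summed level of the 10 other than Lck was 85.6 to 120 CPM in control, 351 and 150 CPM in NHD13 and 31.1 to 71.6 CPM in NHD13/MSI2. Lat, an adaptor of the same pathway, was at 115 and 134 CPM in NHD13 and at most at 60.2 CPM elsewhere. It made up most of the summed level in replicate 2. Gata3 was at 32.3 and 3.27 CPM in NHD13, below control (35.8 to 56.5 CPM). Cd4 was at 4.62 and 11.5 CPM in NHD13 and at 0.302 to 7.04 CPM in control. Cd2 and Cd8a were at 3.59 and 1.53 CPM in replicate 1 and at 0 in replicate 2. The T lineage factors Tcf7 and Bcl11b were at 148 and 45.3 CPM in NHD13 replicate 1 but at 1.40 and 0.0520 CPM in replicate 2, and the receptor chains Cd3d, Cd3e and Cd3g were at most at 0.738 CPM in NHD13. The part of T lineage cells in the level of Lck was not tested in either NHD13 library.

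Channels, transporters and enzymes made up the remaining 11 genes. The table's Clca1 is taken to be the gene now called Clca3a1, since the table holds Clca3 and Clca5, names that are no longer in use, and no Clca3a1. It encodes a secreted protein that modifies chloride currents (chromosome 3, 144729677 to 144760977, minus strand). Clca1 was at 96.7 and 29.1 CPM in NHD13, at 13.4, 8.06 and 5.82 CPM in the controls and at 0.701, 0.728, 0.966 and 0 CPM in the libraries labelled NHD13/MSI2. The groups did not overlap, and here NHD13/MSI2 was the lowest. Mt2, a metal-binding metallothionein, showed the same order, with 9.45 and 12.4 CPM in NHD13, 1.14, 1.91 and 0.565 CPM in the controls and 0.0501, 0.534, 0.132 and 0.102 CPM in NHD13/MSI2. Mt1, its close copy 5514 bases away, was at 62.3 and 135 CPM in NHD13, 4.996 to 13.7 CPM in control and 8.05 to 36.0 CPM in NHD13/MSI2. How reads that fit both copies were counted is not given in the sources used here. Map2, a microtubule protein that marks neurons, was at 5.81 and 1.77 CPM in NHD13 and at most at 0.551 CPM elsewhere, and the 11 other genes of the neuron and glia list summed to 307 to 477 CPM in control and to 144 and 100.4 CPM in NHD13. The other 8 genes of this group lay between 1.82 and 14.7 CPM in NHD13.

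The rule took only genes that were at least 2 times lower in each NHD13/MSI2 library than in NHD13. Genes that stayed high in NHD13/MSI2, such as Hoxc6, could not enter. The comparison of NHD13/MSI2 with control thus cannot tell how often genes high in NHD13 returned to the control level. It asks only where these 60 genes stood in NHD13/MSI2 beside control. Counts of all 9 libraries entered the fit (edgeR, quasi-likelihood, TMM factors), and an adjusted p (Benjamini-Hochberg over the 13355 genes tested) under 0.01 was the threshold. Of the 60 genes 2 were higher and 1 was lower in the libraries labelled NHD13/MSI2. Over all genes tested, 4.49% were higher and 6.55% were lower, so no excess is read in the 60 genes. On simulated data the same fit called 7 of 100 genes changed by 2-fold and 65 of 100 changed by 4-fold. A gene that was not called may therefore still differ. All 60 entered the fit, but only 37 had enough counts in the 7 control and NHD13/MSI2 libraries to be tested there, and the rest passed the count filter through NHD13.

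Cdh1 was higher in the libraries labelled NHD13/MSI2, by 6.20 ± 0.96 on the log2 scale (± is the standard error; adjusted p = 0.00205 by edgeR) and 4 of 4 libraries above the 3 controls. Atp2a1 was higher by 2.68 ± 0.44 (adjusted p = 0.00257 by edgeR), again in 4 of 4 libraries. Clca1 changed by −3.72 ± 0.70 (adjusted p = 0.00516 by edgeR), with 4 of 4 libraries below the controls. Each of these calls ended when 1 of certain libraries was left out. Over all genes tested, the 1474 calls became 703, 753 and 647 without control replicate 1, 2 or 3. They became 1017, 971 and 1054 without NHD13/MSI2 replicate 1, 2 or 3, and 2066 without replicate 4. Without NHD13 replicate 1 or 2 there were 1497 and 1500. Without control replicate 2 or 3 the adjusted p of Cdh1 was 0.0103 and 0.0104, and without control replicate 1 or 3 that of Atp2a1 was 0.0165 and 0.0166. That of Clca1 lay between 0.0115 and 0.0226 when control replicate 1, 2 or 3 or NHD13/MSI2 replicate 1, 2 or 3 was left out, and it stayed under the threshold without NHD13/MSI2 replicate 4 (0.00212).

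Lck was at 0.78 ± 0.20 (adjusted p = 0.0198 by edgeR) and Mt2 at −2.33 ± 0.71 (adjusted p = 0.0458 by edgeR). Neither passed the threshold. Pgm5 and Casq2 entered the fit only through their NHD13 counts, and no test is given for them. With its controls all at 0, the mean level of Pgm5 in NHD13/MSI2 was at least 1.78-fold higher, taking 3 counts per library for the controls.

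In a fit of the 7 control and NHD13/MSI2 libraries alone, 2 of the 37 genes were higher and 1 was lower, and the median log2 fold change was −0.23 over the 37 genes and 0.02 over the 12672 genes of that fit. With groups at 0 set to 3 counts per library and CPM by column totals, the median over 59 genes was −0.45, beside −0.21 over all genes tested on the same scale. Hoxd4, at 0 in both groups, has no ratio. TMM scaling moved the median of all genes by 0.21 on the log2 scale. By CPM from column totals, 4 of the 60 genes had all NHD13/MSI2 libraries above all controls and 8 had all below, where 9.05% and 29.3% of the genes tested did so. With TMM-scaled CPM the counts were 7 and 7, beside 15.3% and 20.4%. The 8 genes that lay below by column totals were Clca1, Inhba, Ltbp4, Mt2, Myom1, Nav3, P2ry1 and Rcvrn, and the 4 above were Atp2a1, Cdh1, Hoxc8 and Pgm5.

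**Figure D4:**
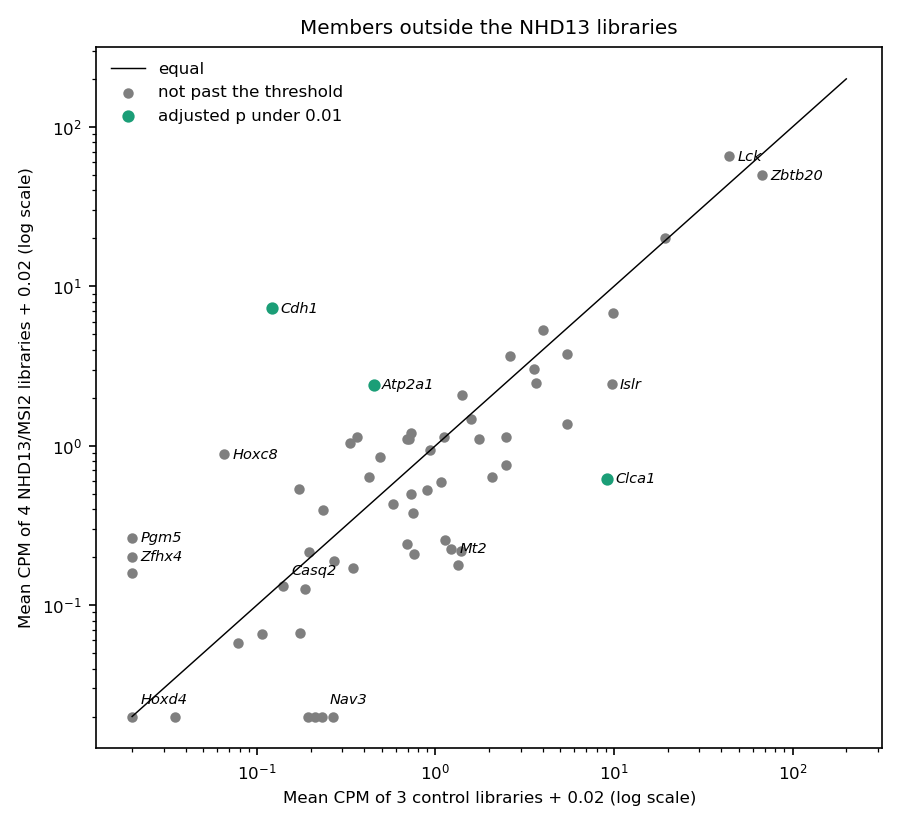
Mean CPM of the 60 genes in the 4 NHD13/MSI2 libraries (y axis, log scale) against the 3 control libraries (x axis, log scale), each with 0.02 added, where the line marks equality and green points passed the threshold. Cdh1 and Atp2a1 lie above the line, Clca1 lies below it, and Lck and Zbtb20 have the highest levels.

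The 60 genes were spread over the genome, with the largest number on chromosome 3 (7 of them, where 638 genes were tested). The closest pair were Islr and Neo1 on chromosome 9, 670381 bases apart, followed by Ramp2 and Mpp2 on chromosome 11, 797469 bases apart. Of the 66 tested genes that stood directly beside a member and were not members, 10 (15.2%) had both NHD13 libraries above the 7 others, beside 6.18% of all genes tested. Vangl1, a planar polarity protein 7069 bases from Casq2, was at 10.04 and 88.2 CPM in NHD13, at 6.42, 2.12 and 4.78 CPM in the controls and at most at 0.679 CPM in NHD13/MSI2. Replicate 2 was the higher NHD13 library in both Casq2 and Vangl1. Iqcb1, which overlaps Eaf2, was at 95.9 and 275 CPM in NHD13, 44.7 to 50.1 CPM in control and 30.7 to 42.1 CPM in NHD13/MSI2. Gm19522, which overlaps Zbtb20, was at 74.5 and 53.7 CPM in NHD13, 2.57 to 3.56 CPM in control and 13.5 to 32.7 CPM in NHD13/MSI2. Whether reads were counted by strand is not given in the sources used here, so reads of overlapping genes cannot be told apart. Other neighbours differed little, such as Jmy beside Homer1, at 33.6 and 30.1 CPM in NHD13 and at most at 30.02 CPM elsewhere. These neighbours were named after their values were seen.

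**Figure D5:**
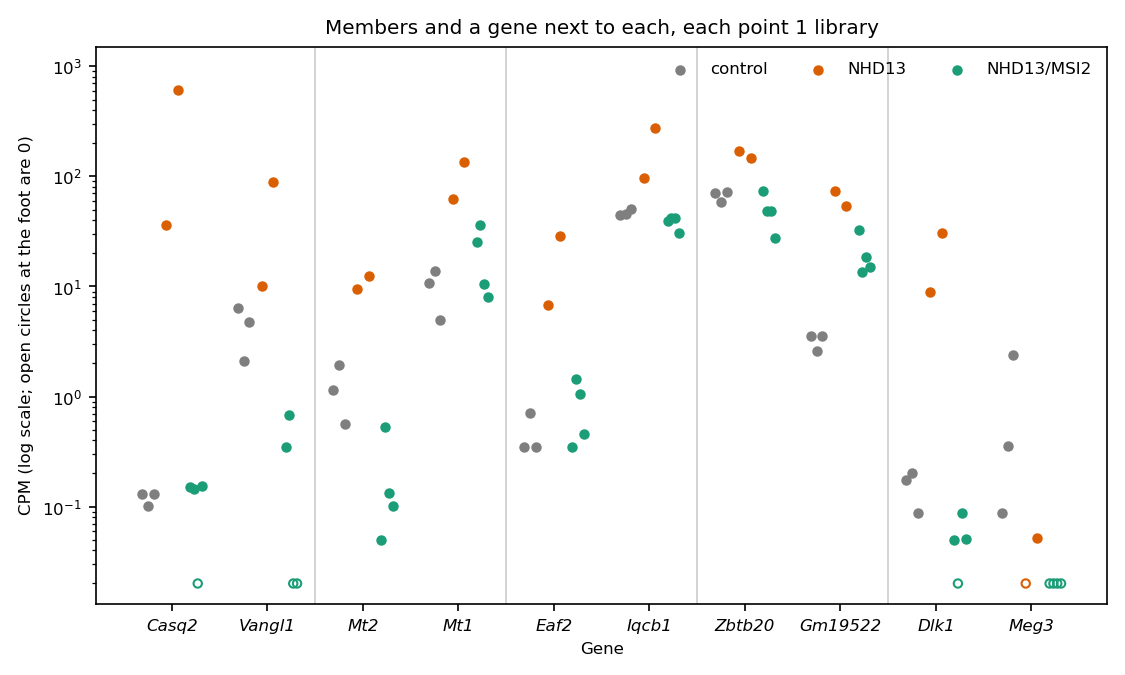
CPM (y axis, log scale) of 5 of the 60 genes and of a gene next to or overlapping each (x axis), with 1 point per library, by group, and open circles at the foot for values of 0. Vangl1, Mt1, Iqcb1 and Gm19522 have both NHD13 points above the other libraries, whereas Meg3 beside Dlk1 does not.

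Of the other letters searched in the 46 promoters on either strand, TGTGGT (the core of RUNX sites) stood in 10 (21.7%, beside 18.9% of all genes and 15.6% of the genes tested), and CCGGAAG (ETS sites) in 3 (6.52%, beside 9.93% and 19.7%). The letters GATAAG, bound by Gata1 and its relatives, stood in 4 (8.70%, beside 8.59% and 6.37%) and TGANTCA (AP-1 sites) in 2 (4.35%, beside 8.97% and 6.30%). A match is a description of the letters and not a site.

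Of the 33 gene lists examined, 11 held at least 1 of the 60 genes, and 14 of the 60 genes were on a list. The lists of HSC, GMP, megakaryocyte, erythroid, neutrophil and B cell markers held none. Their markers were still unequal between the 2 NHD13 libraries. Pf4 was at 310 and 17.0 CPM, Vwf at 181 and 14.0 CPM and Car2 at 2355 and 358 CPM in replicates 1 and 2. Among the B cell markers, Blnk (11.6 and 44.7 CPM) and Vpreb1 (1.43 and 1.77 CPM) went the other way. Il7r (73.9 and 2.65 CPM), Cd79a (39.6 and 0.623 CPM) and Dntt (320 and 183 CPM) were higher in replicate 1. Il18r1 was the only one of 37 cytokine receptors, of which 7 were higher and 7 lower in NHD13/MSI2 over control among 36 tested. Dlk1 was the only one of 24 imprinted genes, of which 6 of 15 tested were lower. For both lists, the shares over all genes tested were 4.49% higher and 6.55% lower.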

How the data were processed

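RNA of sorted LSKs was sequenced in 3 control, 2 NHD13 and 4 NHD13/MSI2 libraries. The authors deposited raw read counts, as whole numbers for each gene symbol and library. The submitters' processing notes name STAR, HTSeq, DESeq and the genome build mm9. Whether counting used strand is not given in the sources used here. The names that follow the March genes stand 2 rows too high in the table and were moved down by 2 rows (11942 names). Of 80 ribosomal protein names among them, 72 then reached a mean of 1000 counts, beside 60 with the names as deposited and 58 to 67 after other moves. The 13 rows whose name could not be settled were left out.

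CPM were computed from column totals. NHD13/MSI2 was compared with control on the deposited counts by edgeR 4.0.16 (R 4.3.3; filterByExpr by group, TMM, glmQLFit and glmQLFTest over all 9 libraries, Benjamini-Hochberg adjusted p under 0.01), and the script was tested on simulated data. Fold changes and standard errors are on the log2 scale. A count of 0 allows up to 3 counts per library. Intervals and floors cover counting error only. Positions are from GENCODE M21 on GRCm38 and promoters from RefSeq on GRCm38.p6, neither of which is the authors' build, and 46 of the 60 genes had a promoter.

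The 60 genes, the gene lists and the tests were chosen with earlier results of these data known, and the grouping by role was made after the values were seen. Genes were named by rule if they were among the 12 largest ratios of lowest NHD13 to highest other CPM or the 8 highest lowest NHD13 CPM, on a gene list, past the threshold, or nearest to the 2-fold limit. Other genes, the neighbours included, were named after their values were seen. Alternatives were DESeq2 1.42.0, RLE factors, other count filters, an adjusted p under 0.05, a robust fit, a replicate block, a fit of 7 libraries, other limits in the rule, TMM-scaled CPM, X- and Y-linked genes kept and each library left out. The fit with names as deposited was added after the data were seen.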

Additional observations from a re-analysis of the deposited data

Results flagged for a closer look

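In 9 of the 50 members examined, the 4 libraries labelled NHD13/MSI2 held 1 library set apart from the rest by Dixon's ratio, which chance gives in about 1 of 20 groups of normal values. Over the 12902 tested genes examined in the same way the share was 13.9%. Replicate 1 was the high library in Amotl2 (0.751 CPM), Map2 (0.551 CPM) and Mpp2 (0.751 CPM). Replicate 2 was the high library in Mt2 (0.534 CPM), Ncald (0.679 CPM) and Zfhx4 (0.679 CPM). Replicate 3 was the high library in Hoxc8 (1.80 CPM), Islr (5.71 CPM) and Podxl (0.790 CPM). Replicate 4, which stood apart in its TMM factor, was not set apart in any of the 9 genes. All but Islr rest on 41 counts or fewer.

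The rule left out X-linked genes, and 5 of them met it otherwise. Their lower NHD13 level and highest other level were 36.1 and 4.56 CPM for Gm595, 21.9 and 2.40 CPM for Tmem47, 17.2 and 5.86 CPM for Mum1l1, 9.14 and 4.30 CPM for Xlr, and 9.09 and 3.15 CPM for Gpm6b. Among the 7 other libraries, Xlr and Mum1l1 were highest in control replicate 3, 1 of the 2 controls with Xist, and Xlr was at 0 in the 4 libraries labelled NHD13/MSI2.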

How the results depend on the processing

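The number of genes that met the rule was 36 at a 3-fold limit, 123 at a 1.5-fold limit and 36 at a minimum of 100 counts. With 1 library left out it lay between 62 and 457, with 146 without NHD13 replicate 1, 457 without NHD13 replicate 2 and at most 87 without any other. In NHD13/MSI2 over control, the 2 genes that were higher became 5 by DESeq2 (a Wald test), 5 at an adjusted p under 0.05 and 4 with a replicate block, and lay between 0 and 3 with 1 library left out. Both counts of 5 include Pgm5, which entered the fit only through its NHD13 counts and is not read as a call. The 1 gene that was lower became 2 by DESeq2, 2 at an adjusted p under 0.05 and 2 with the names as deposited, and lay between 0 and 2 with 1 library left out. The replicate block left it at 1. With the names as deposited, the row then called Pgm5 had a log2 fold change of −1.11, since it holds another gene's counts. The cause of the other changes was not tested. Whether the replicate numbers pair the libraries cannot be told. Same-numbered libraries correlated between −0.07 and 0.19 in their deviations from the group means, and differently numbered ones between −0.19 and 0.15. With only 2 NHD13 libraries, the deviations of each mirror those of the other. Over the single genes, with Pgm5 among them, 154 values kept their direction and side of the threshold, 12 newly passed it, 10 no longer passed it and 1 changed sign. Levels of a few counts limit what can be seen in control and NHD13/MSI2. With 3 counts per library as the floor, levels under 0.130 to 0.153 CPM in these libraries cannot be told from 0, also where 1 or 2 counts were read. The names were moved on evidence from the table itself, and which mice gave which library is not known.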
